A study of Homo sapiens with 10 samples.

Results

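The insulin-like growth factor (IGF) axis was followed through 10 genes chosen by name and role, with earlier results of these data known. They were the ligand gene IGF2, the receptor genes IGF1R and IGF2R and the adaptor gene IRS1. The binding protein genes were IGFBP2, IGFBP3, IGFBP4, IGFBP5, IGFBP6 and IGFBP7. All 10 were found among the 52402 gene symbols of the count tables. Of these, 9 entered the test across 14884 genes, and IGFBP5 had too few counts to be tested. The genes were measured by mRNA-sequencing in BEAS2B, a single immortalized human bronchial epithelial line that the labels call wild type. The study asked what miRNAs picked from serum exosomes of patients with small cell lung cancer do in a normal lung line. Cells were transfected with Lipofectamine 2000 and harvested after 48 h, with 2 libraries in each of 5 groups. The groups received scrambled miRNA (Con), miR-3124-5p mimic (miR3124), miR-200b-3p mimic (miR200b), miR-92b inhibitor (miR92b_in), or all 3 oligonucleotides together (MIX). Each oligonucleotide was used at 50 nM, and the amount of each in MIX was not stated.

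IGF ligands bind IGF1R, a receptor tyrosine kinase, which phosphorylates IRS1 and so recruits PI3 kinase and activates AKT. IGF2R, also known as the cation-independent mannose 6-phosphate receptor, takes up IGF2 for degradation and has no kinase domain. The binding proteins hold IGFs outside the cell and can withhold them from the receptor or release them when proteases such as PAPPA cut the binding protein. In airway epithelium the axis is known for its part in growth, survival and repair.

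The miRNA sequences are shown because every comparison rests on them. They are the RefSeq mature forms on GRCh38.p14, with bases 2 to 8 (the seed) in capitals, all from the plus strand of chromosome 1. The labels do not say which arm of miR-92b the inhibitor binds, so both are given. The seeds of the 4 sequences all differ.
miR-3124-5p, chr1:248826383-248826403: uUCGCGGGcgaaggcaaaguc
miR-200b-3p, chr1:1167160-1167181: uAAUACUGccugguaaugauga
miR-92b-3p, chr1:155195237-155195258: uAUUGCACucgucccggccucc
miR-92b-5p, chr1:155195196-155195217: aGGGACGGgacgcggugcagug

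The word complementary to the seed was CCCGCGA for miR-3124-5p, CAGTATT for miR-200b-3p, GTGCAAT for miR-92b-3p and CCGTCCC for miR-92b-5p. The words were searched on the sense strand of the 3′ untranslated region (3′UTR) of the longest coding transcript (GENCODE v29, GRCh38). No member held CCCGCGA, a word found in 0.62% of the 12259 3′UTRs of tested genes, and none held CCGTCCC, found in 4.18%. CAGTATT, found in 19.5%, occurred in IGF2R and IRS1. GTGCAAT, found in 13.1%, occurred in IGFBP7. Among 3′UTRs of similar length, the same word was present in 54.6% for IGF2R, 43.9% for IRS1 and 3.31% for IGFBP7. A match is a run of letters and was not shown to be a binding site. The 3 matches are printed below in 30 bases of sense-strand sequence, with the word in capitals.
IGF2R, miR-200b-3p word, chr6:160105833-160105862, plus strand: acagagcacatttgtCAGTATTtttgccgg
IRS1, miR-200b-3p word, chr2:226733162-226733191, minus strand: ctgtatggtaagaaaCAGTATTttacaata
IGFBP7, miR-92b-3p word, chr4:57030954-57030983, minus strand: cactcatcattcgcgGTGCAATactcatag

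Library totals ranged from 13587666 to 18503890 counts, and the 10 genes took 0.0878% to 0.12% of them. Levels are given as CPM, the read count scaled to the normalized library size. A call means a Benjamini-Hochberg adjusted p under 0.05 in the edgeR quasi-likelihood test. The labels do not say that the libraries of a group were separate transfections, so the p-values measure the spread between these libraries, which may be technical. In RNA from whole cultures, fewer cells of a kind and less RNA per cell cannot be told apart. ZEB1 and ZEB2, established targets of the miR-200 family, fell by 1.29 and 2.27 on the log2 scale in miR200b.

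Markers of the labelled cell type were uneven. KRT8 and KRT18 were abundant in Con, at 813 and 628 CPM, whereas CDH1 had 3 and 2 counts and TP63, SCGB1A1 and MUC5AC had none. The summed level of 12 airway epithelial markers was 2220 and 2267 CPM in Con, with 7 of the 12 above 3 counts. It was 2774 to 2780 CPM in miR3124, 4192 to 4273 in miR200b, 2097 to 2187 in miR92b_in and 4082 to 4110 in MIX. KRT7, KRT8 and KRT18 made up most of each sum. CDH1, EPCAM and CDH3 were called higher in miR200b and MIX and were not called in miR3124 or miR92b_in. CDH1 had 146 and 157 counts in miR200b and 46 and 36 in MIX. EPCAM had 137 and 175 in miR200b and 103 and 98 in MIX, against 8 and 2 in Con. CDH1 and EPCAM passed the filter on low counts only through miR200b and MIX. CDH3 rose by 2.43 on the log2 scale in miR200b. KRT19, at 8.197 CPM in Con, was called higher in miR200b at 14.4 CPM. It was called lower in miR3124 at 0.7592 CPM, in miR92b_in at 5.121 and in MIX at 2.614. The 7 mesenchymal markers summed to 7432 to 7455 CPM in Con and to 4500 to 5043 CPM in miR3124, miR200b and MIX. In miR3124 VIM made up most of the difference, at 812 CPM against 3797 in Con, and SNAI2 fell too, while ZEB2 rose and FN1, CDH2, ZEB1 and TWIST1 were not called. In miR200b and MIX, VIM, FN1, CDH2, ZEB1 and ZEB2 fell and TWIST1 was not called. SNAI2 went the other way there, at 43.67 CPM in miR200b and 33.25 in MIX against 23.21 in Con. The 8 fibroblast markers summed to 225 to 235 CPM in Con and 335 to 343 CPM in miR3124, with DCN and LUM at 0 in both. The 3 tested fibroblast markers were all called higher in miR3124: PDGFRB by 1.95 on the log2 scale, COL1A1 by 0.99 and THY1 by 0.44. In miR200b the fibroblast sum was 143.2 to 145.5 CPM. There COL1A1 was called higher (log2 change 1.62), and PDGFRB and THY1 were called lower (-1.33 and -1.01). The 5 leukocyte markers summed to 0.972 to 1.67 CPM in Con and 12.8 CPM in miR3124, where CD14 had a mean of 12.5 CPM, with PTPRC and CD3E at 0 there. The 4 endothelial markers summed to 0.286 to 0.298 CPM in Con and 3.22 to 4.78 CPM in miR3124, where CDH5 had 59 and 44 counts against 1 and 1, PECAM1 2 and 2, and KDR 0 and 3. The part of these shifts in the changes of IGF axis genes was not tested.

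In miR3124, 5 members rose (IGF1R, IGF2R, IRS1, IGFBP2 and IGFBP7) and 2 fell (IGFBP3 and IGFBP4) of the 8 tested members other than IGF2, while 25.7% of all tested genes rose and 25.3% fell. IGF2 was also called higher, but it passed the filter on low counts only through this group and is left out of the count. The median log2 change was 0.40 over these 8 members and 0.00 over all genes. The study's own criterion asked for a 2-fold change and an unadjusted p below 0.05, and IGFBP2 met it among these 8 members, against 8.81% of all genes.

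In miR200b, 4 members rose (IGF1R, IRS1, IGFBP6 and IGFBP7) and 3 fell (IGF2R, IGFBP3 and IGFBP4), against 21.4% and 19.1% of all genes. The changes were small, between -0.54 and 0.31 on the log2 scale over the 8 members other than IGF2. None met the 2-fold criterion, which 5.7% of all genes met. The count of 7 calls dropped to 4 with DESeq2, and to 4 without miR200b replicate 2.

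In miR92b_in, 3 members rose (IGFBP3, IGFBP4 and IRS1) and 4 fell (IGF2R, IGFBP2, IGFBP6 and IGFBP7), against 17.5% and 18.2% of all genes. The median log2 change was -0.19 over the 8 members other than IGF2 and -0.01 over all genes. None of the members met the 2-fold criterion, met by 2.63% of all genes.

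In MIX, 2 members rose (IGF1R and IRS1) and 2 fell (IGFBP3 and IGFBP4), against 21.5% and 21.1% of all genes. The median log2 change was 0.06 over the 8 members other than IGF2 and 0.00 over all genes. None of the members met the 2-fold criterion, which 5.42% of all genes met. All 4 comparisons share the same 2 Con libraries, so their values are set side by side and not as independent results.

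**Figure D1:**
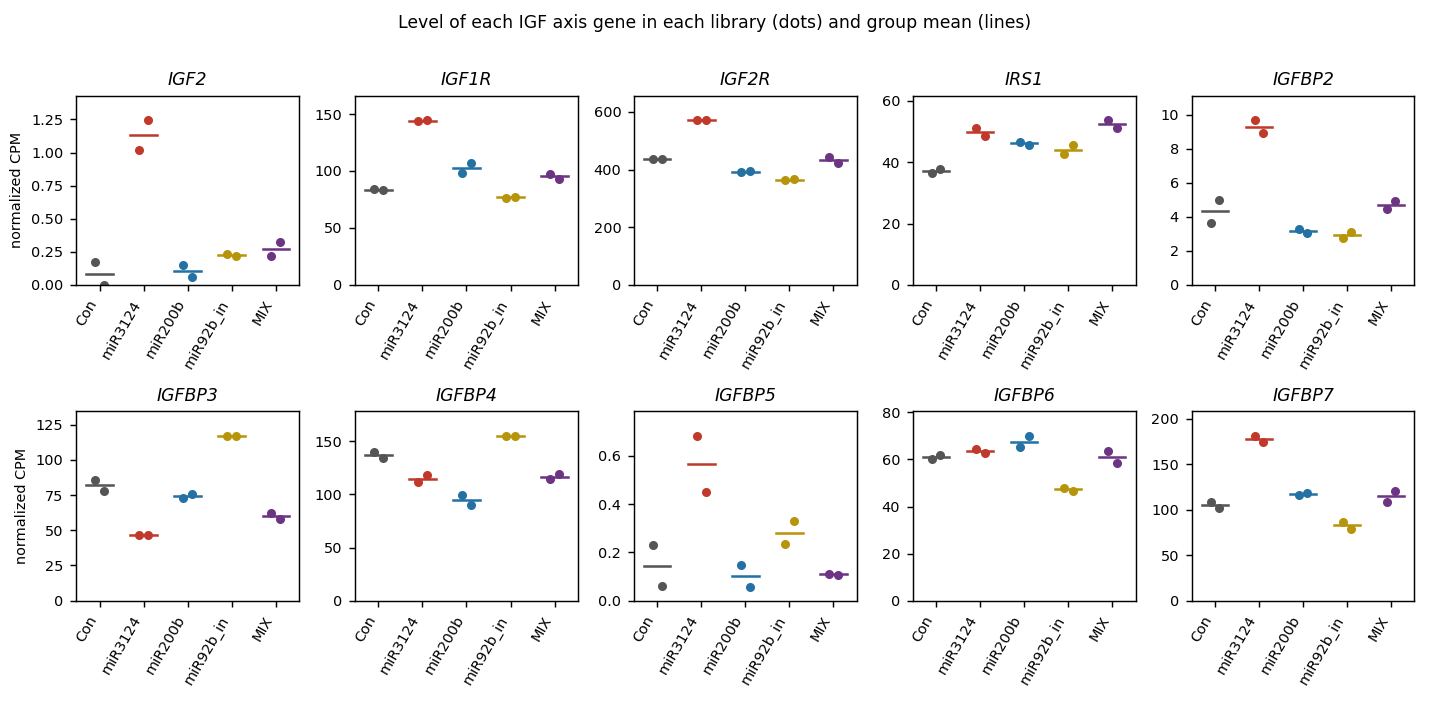
Normalized CPM (vertical axes, linear, each gene on its own scale from 0) of the 10 IGF axis genes in the 5 groups (horizontal axes); dots are the 2 libraries of a group and lines are group means. MiR3124 is the highest group for IGF1R (144 CPM against 83.6 in Con) and IGFBP7 (178 against 106) and the lowest for IGFBP3 (46.5 against 81.9), while IGF2 and IGFBP5 stay below 1.3 CPM in every library.

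IGF2 (chr11:2129112-2149603, minus strand) encodes the fetal-type ligand of the axis and was barely present in these cells. Its counts were 3 and 0 in Con, 15 and 22 in miR3124, 2 and 1 in miR200b, 4 and 4 in miR92b_in, and 4 and 6 in MIX. The miR3124 libraries stood above every other library, at 1.02 and 1.24 CPM against at most 0.323 CPM elsewhere. IGF2 passed the filter on low counts only through miR3124, so the group that let it be tested is also the group in which it differs. The ratio of summed, depth-corrected counts of miR3124 to Con was 13.1 (37 against 3 counts, exact 95% interval 4.14 to 66.2, counting error only), and no p-value is given because of the way it entered the test. For miR92b_in and MIX the ratios were 2.58 (0.619 to 15.1) and 3.11 (0.801 to 17.6), intervals that include 1, and no ratio was formed for miR200b, where both groups lay at 3 counts. The fitted log2 change in miR3124 ran from 2.68 without Con replicate 2 to 7.27 without Con replicate 1, since replicate 2 held none of the counts.

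Other ligand genes were all but silent. IGF1 had at most 1 count in any library, and INS and the read-through gene INS-IGF2 had 0 in all 10. The imprinted neighbour H19, which is not a ligand gene, also had 0 in all 10. A count of 0 allows up to 3 counts per library at this depth.

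IGF1R (chr15:98648539-98964530, plus strand), the signalling receptor, was highest in miR3124. Its level was 84.4 and 82.9 CPM in Con, 143.8 and 144.5 in miR3124, 98.5 and 107 in miR200b, 76.6 and 77.0 in miR92b_in, and 97.7 and 93.3 in MIX. No library of another group reached the miR3124 pair, and both miR92b_in libraries lay below both Con libraries. The change was 0.79 ± 0.048 (SE, n = 2 libraries a group) on the log2 scale in miR3124, or 1.72-fold (edgeR adjusted p = 5.65e-19). It was 0.30 ± 0.050 in miR200b (adjusted p = 2.16e-06) and 0.19 ± 0.050 in MIX (adjusted p = 0.00139), while miR92b_in at -0.12 missed the threshold (adjusted p = 0.0562).
In the order of groups, miR200b and MIX were not separated by the test for IGF1R (adjusted p = 0.0665), nor were Con and miR92b_in, whereas miR3124 stood apart from miR200b by 0.48 (adjusted p = 2.68e-12). The IGF1R 3′UTR, with none of the searched words, is 7088 bases long.

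IGF2R (chr6:159969099-160113507, plus strand), the clearance receptor, rose in miR3124 and fell in miR200b and miR92b_in. Its level was 436 CPM in both Con libraries, 570.6 and 570.1 in miR3124, 389.9 and 394.3 in miR200b, 363.7 and 365.7 in miR92b_in, and 442.3 and 422.2 in MIX. The groups did not overlap except for MIX, whose libraries lay on either side of Con. The rise in miR3124 was 1.31-fold (log2 change 0.39 ± 0.035, adjusted p = 3.44e-13), and IGF2R fell by 0.15 in miR200b (adjusted p = 0.000438) and by 0.26 in miR92b_in (adjusted p = 9.86e-08). In MIX the change was -0.01, with a 95% interval from -0.08 to 0.06. The order ran miR3124, Con, MIX, miR200b, miR92b_in, and of the neighbours only Con and MIX were not separated (adjusted p = 0.808).

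IRS1 (chr2:226731317-226799759, minus strand), the docking protein that links the receptor to PI3 kinase, was the member that rose in all 4 transfected groups. Con held 36.6 and 37.8 CPM, below each of the other 8 libraries. Levels were 51.0 and 48.5 CPM in miR3124, 46.6 and 45.7 in miR200b, 42.6 and 45.6 in miR92b_in, and 53.6 and 51.2 in MIX. The largest change was in MIX, 0.50 ± 0.064 on the log2 scale or 1.41-fold (adjusted p = 1.05e-08). It was followed by 0.42 in miR3124 (adjusted p = 5.19e-07), 0.31 in miR200b (adjusted p = 0.000163) and 0.25 in miR92b_in (adjusted p = 0.00259). The call in miR92b_in was lost without miR92b_in replicate 2 (log2 change 0.20, adjusted p = 0.071). No neighbouring pair among the 4 transfected groups was separated by the test for IRS1 (adjusted p from 0.154 to 0.437), but groups further apart were: MIX from miR200b (0.0168) and from miR92b_in (0.00106), and miR3124 from miR92b_in (0.0186). IRS1 rose in miR200b although its 3′UTR holds the miR-200b-3p word, and IGF2R, which holds it too, fell.

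IGFBP2 (chr2:216632828-216664436, plus strand), a binding protein with a preference for IGF2, was low but doubled in level in miR3124. Its level was 3.66 and 5.01 CPM in Con, 9.69 and 8.93 in miR3124, 3.29 and 3.05 in miR200b, 2.74 and 3.12 in miR92b_in, and 4.47 and 4.95 in MIX. The miR3124 libraries stood above all others, the Con libraries spread around both MIX libraries, and miR200b and miR92b_in overlapped below Con. The change in miR3124 was 1.10 ± 0.17 on the log2 scale, or 2.15-fold (adjusted p = 4.71e-07). The fall of 0.56 in miR92b_in (adjusted p = 0.0303) was lost with DESeq2 (adjusted p = 0.109) and without Con replicate 2, miR92b_in replicate 1 or miR92b_in replicate 2, where the log2 change was -0.32, -0.47 and -0.65 (adjusted p = 0.388, 0.161 and 0.0574). In miR200b the change was -0.45 (adjusted p = 0.0813), and without Con replicate 1 it was called at -0.66 (adjusted p = 0.0263).

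IGFBP3 (chr7:45912245-45921874, minus strand), the main carrier of IGFs in blood, moved in opposite directions in miR3124 and miR92b_in. Its level was 85.8 and 78.0 CPM in Con, 46.4 and 46.6 in miR3124, 73.1 and 75.9 in miR200b, 116.8 and 116.9 in miR92b_in, and 62.2 and 58.3 in MIX. No 2 groups overlapped. IGFBP3 fell by 0.82 ± 0.058 on the log2 scale in miR3124, 1.76-fold (adjusted p = 1.17e-16), and rose by 0.51 ± 0.051 in miR92b_in, 1.43-fold (adjusted p = 2.23e-11). In MIX it fell by 0.45 (adjusted p = 2.94e-09).
The fall of 0.14 in miR200b (adjusted p = 0.0426) was the least secure of the IGFBP3 calls. It was lost with TMM factors (adjusted p = 0.056), with DESeq2 (0.135), without a filter on low counts (0.0881), and without Con replicate 1, either miR3124 library, either miR200b library or either miR92b_in library. Without Con replicate 1 the change was -0.06. The direct test between miR3124 and miR92b_in gave a difference of -1.33 (adjusted p = 2.88e-25), and all neighbours in the order miR92b_in, Con, miR200b, MIX, miR3124 differed.

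IGFBP4 (chr17:40443461-40457731, plus strand), a binding protein that inhibits IGF action until PAPPA cuts it, fell in every group given a mimic. Con held 140.2 and 134.1 CPM, miR3124 111 and 118, miR200b 98.9 and 90.0, miR92b_in 154.8 and 154.6, and MIX 114 and 119. All mimic libraries were below Con, the miR92b_in libraries were above it, and miR3124 and MIX overlapped. The largest fall was in miR200b, 0.54 ± 0.049 on the log2 scale or 1.46-fold (adjusted p = 4.7e-13), followed by 0.25 in miR3124 (adjusted p = 1.12e-05) and 0.23 in MIX (adjusted p = 4.3e-05). IGFBP4 rose by 0.17 in miR92b_in (adjusted p = 0.002), a call lost without Con replicate 2 (0.14, adjusted p = 0.0612). The IGFBP4 3′UTR held none of the searched words.

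IGFBP5 (chr2:216672105-216695525, minus strand), a binding protein known for its affinity to extracellular matrix and the neighbour of IGFBP2 on chromosome 2, was near the limit of detection. Its counts were 4 and 1 in Con, 10 and 8 in miR3124, 2 and 1 in miR200b, 4 and 6 in miR92b_in, and 2 and 2 in MIX. The miR3124 libraries were the highest pair. The depth-corrected ratio of miR3124 to Con was 3.81 (18 against 5 counts, exact 95% interval 1.36 to 13.1, counting error only), with no test over libraries. The intervals of miR200b (0.104 to 3.43), miR92b_in (0.602 to 7.21) and MIX (0.148 to 3.47) included 1.

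IGFBP6 (chr12:53097436-53102345, plus strand), which strongly prefers IGF2, was set apart by miR92b_in. Its level was 60.3 and 61.8 CPM in Con, 64.5 and 62.8 in miR3124, 65.1 and 69.9 in miR200b, 47.9 and 46.7 in miR92b_in, and 63.5 and 58.3 in MIX. The miR92b_in pair lay below all other libraries, which otherwise lay close together. The change in miR92b_in was -0.37 ± 0.060 on the log2 scale, a 1.29-fold fall (adjusted p = 2.51e-06). The rise of 0.15 in miR200b (adjusted p = 0.0362) was lost with library totals alone (0.0532), with DESeq2 (0.134), without a low-count filter (0.0628), and without either Con library or miR200b replicate 2. In miR3124 and MIX the changes were 0.06 and -0.005, with 95% intervals from -0.06 to 0.18 and from -0.12 to 0.11.

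IGFBP7 (chr4:57030773-57110385, minus strand), a related secreted protein that binds IGFs weakly, rose with miR3124 and fell with miR92b_in. Con held 109 and 102 CPM, miR3124 180.9 and 174.7, miR200b 116 and 118, miR92b_in 87.0 and 78.5, and MIX 108 and 121. The miR3124 pair was above and the miR92b_in pair below every other library, and the MIX and Con libraries overlapped. IGFBP7 rose 1.68-fold in miR3124 (log2 change 0.75 ± 0.049, adjusted p = 8.08e-18) and fell by 0.35 ± 0.053 in miR92b_in (adjusted p = 5.93e-07). The rise of 0.15 in miR200b (adjusted p = 0.0196) was lost with DESeq2 (0.0725), without Con replicate 2 (0.232) and without miR200b replicate 2 (0.126). In MIX the change of 0.12 (adjusted p = 0.0568) was called with TMM factors (0.0337), library totals (0.0259), the 2 groups alone (0.0346), a filter of at least 10 counts (0.0347), and without Con replicate 1 (0.0401) or MIX replicate 1 (0.00721).
IGFBP7 fell under the miR-92b inhibitor while holding the miR-92b-3p word printed above, in a 3′UTR of 544 bases. The antisense gene IGFBP7-AS1 is also annotated, and the strand setting of the counting was not given. Reads of any overlap may therefore be shared, which was not tested.

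**Figure D2:**
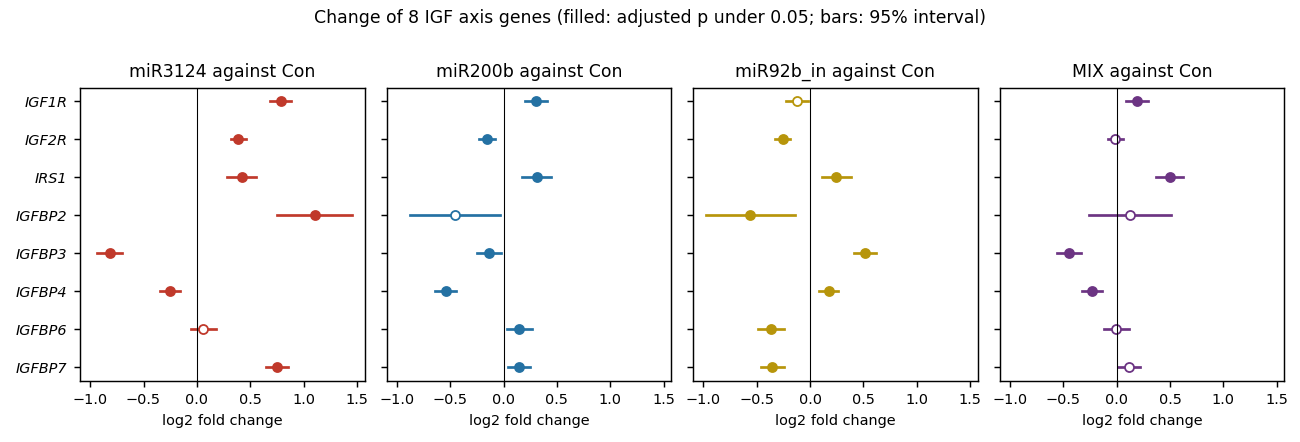
Log2 fold change against Con (horizontal axis) of 8 IGF axis genes (rows) in miR3124, miR200b, miR92b_in and MIX; bars are 95% intervals and filled dots have an edgeR adjusted p under 0.05. MiR3124 spans -0.82 (IGFBP3) to 1.10 (IGFBP2), and IGFBP3 and IGFBP7 lie on opposite sides of 0 in miR3124 and in miR92b_in. IGF2 and IGFBP5 are left out because their changes rest on few counts.

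Transfected groups were also compared with each other. IGF2, tested only through its counts in miR3124, is left out of these counts, which cover 8 members. All 8 differed between miR3124 and miR92b_in, where 58.8% of all genes did. Between miR3124 and miR200b 6 differed (57.8% of all genes), and between miR200b and miR92b_in 6 (50.5%). MIX differed from miR3124 in 5 members (49.1%), from miR200b in 6 (38.6%) and from miR92b_in in 8 (39.6%), and the count against miR200b was 3 with DESeq2 and 3 without miR200b replicate 2.
IGF1R, IGF2R, IGFBP2 and IGFBP7 were lower in MIX than in miR3124, by 0.40 (IGF2R) to 0.98 (IGFBP2) on the log2 scale, while IGFBP3 was higher in MIX by 0.37.

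The log2 change in MIX was then set against the sum of the 3 single log2 changes. This departure was tested as a contrast of all 5 groups, and 4 of the 8 tested members other than IGF2 were called (21.7% of all genes). IGF1R fell short of the sum by 0.78 ± 0.099, since the single changes summed to 0.97 and MIX gave 0.19 (adjusted p = 3.56e-08). IRS1 fell short by 0.48 (0.97 against 0.50, adjusted p = 0.0054) and IGFBP7 by 0.43 (0.54 against 0.12, adjusted p = 0.00153).
IGFBP4 departed the other way, since the sum was -0.62 and MIX gave -0.23, a difference of 0.39 (adjusted p = 0.00154). For all 4 called genes the MIX value was therefore nearer to 0 than the sum. The count fell to 2 without Con replicate 1. IGFBP3 lay on the sum, with -0.44 against -0.45 and a 95% interval of the difference from -0.23 to 0.22. As the amounts in MIX were not stated, a smaller dose of each oligonucleotide and an effect of combining them cannot be told apart.

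**Figure D3:**
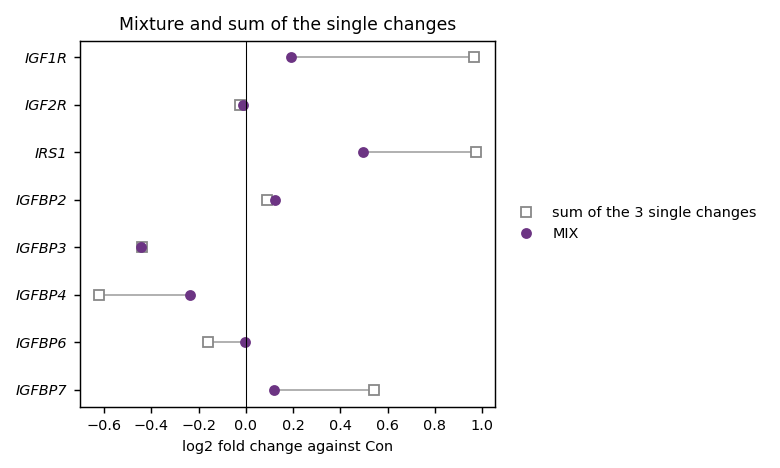
Log2 fold change against Con (horizontal axis) of 8 IGF axis genes (rows) in MIX (filled circles) and as the sum of the 3 single-oligonucleotide changes (open squares). The lines are longest for IGF1R (0.97 against 0.19) and short or absent for IGFBP3, IGF2R and IGFBP2.

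Levels of different members were compared per kilobase of exon in Con, as CPM per kb. IGFBP4 stood at 62.3 ± 1.9 (SD, n = 2), IGFBP7 at 54.7 ± 2.4 and IGFBP6 at 45.4 ± 0.79. IGF2R followed at 24.4, IGFBP3 at 17.9 ± 1.2, IGF1R at 5.998 and IRS1 at 3.74.
IGFBP2 reached 0.909 ± 0.20, and IGFBP5 and IGF2 stayed under 0.03 CPM per kb. Per kilobase, mRNAs of 3 binding proteins therefore stood above both receptors, and IGF2 was the lowest of the 10. With the longest transcript as the length, IGFBP7 (74.0) came before IGFBP4 (62.3) and IGFBP3 (33.9) before IGF2R (31.1), so the order within these pairs depends on the length used. IGFBP2 was then at 3.01 CPM per kb, next to IRS1 at 3.83.

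Proteases that cut binding proteins, and the inhibitors of these proteases, formed a list of 10 genes, of which 7 were tested. In miR3124 6 rose (PAPPA, HTRA1, ADAM9, ADAM12, CTSD and STC1) and 1 fell (STC2), where 25.7% of all genes rose and 25.3% fell. In MIX 6 rose (PAPPA, HTRA1, ADAM9, ADAM12, STC1 and STC2) and CTSD fell, where 21.5% of all genes rose and 21.1% fell.
In miR200b 1 rose and 3 fell (21.4% and 19.1% of all genes), as in miR92b_in (17.5% and 18.2%). The median log2 change was 0.60 in miR3124 and 0.20 in MIX, against 0.00 over all genes in both.
PAPPA, the metalloprotease that cleaves IGFBP4, was at 19.3 and 22.4 CPM in Con and 106 and 113 CPM in miR3124, far above all other groups. It rose 5.27-fold in miR3124 (log2 change 2.40 ± 0.068, adjusted p = 1.46e-31) and 2.13-fold in MIX (43.5 and 45.1 CPM, adjusted p = 9.79e-17). In miR200b the change was 0.20 (adjusted p = 0.0674), and in miR92b_in it was -0.22 (adjusted p = 0.0472).
HTRA1, a secreted serine protease that degrades several binding proteins, was at 31.1 and 32.1 CPM in Con and 109 and 120 CPM in miR3124, a rise of 1.86 on the log2 scale (adjusted p = 9.34e-29). In miR200b it was at 17.2 and 16.0 CPM and fell by 0.94 (adjusted p = 7.95e-13). ADAM12, a membrane protease reported to cut IGFBP3 and IGFBP5, went the same 2 ways: it rose by 0.86 in miR3124 (adjusted p = 1e-22) and fell by 0.83 in miR200b (adjusted p = 1.48e-19). STC1, a stanniocalcin that blocks PAPPA, rose in all 4 groups, from 115 and 107 CPM in Con to 326 and 323 CPM in MIX (log2 change 1.55 ± 0.042, adjusted p = 4.7e-32). Its changes in the single groups were 0.60 in miR3124, 0.83 in miR200b and 0.54 in miR92b_in.

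**Figure D4:**
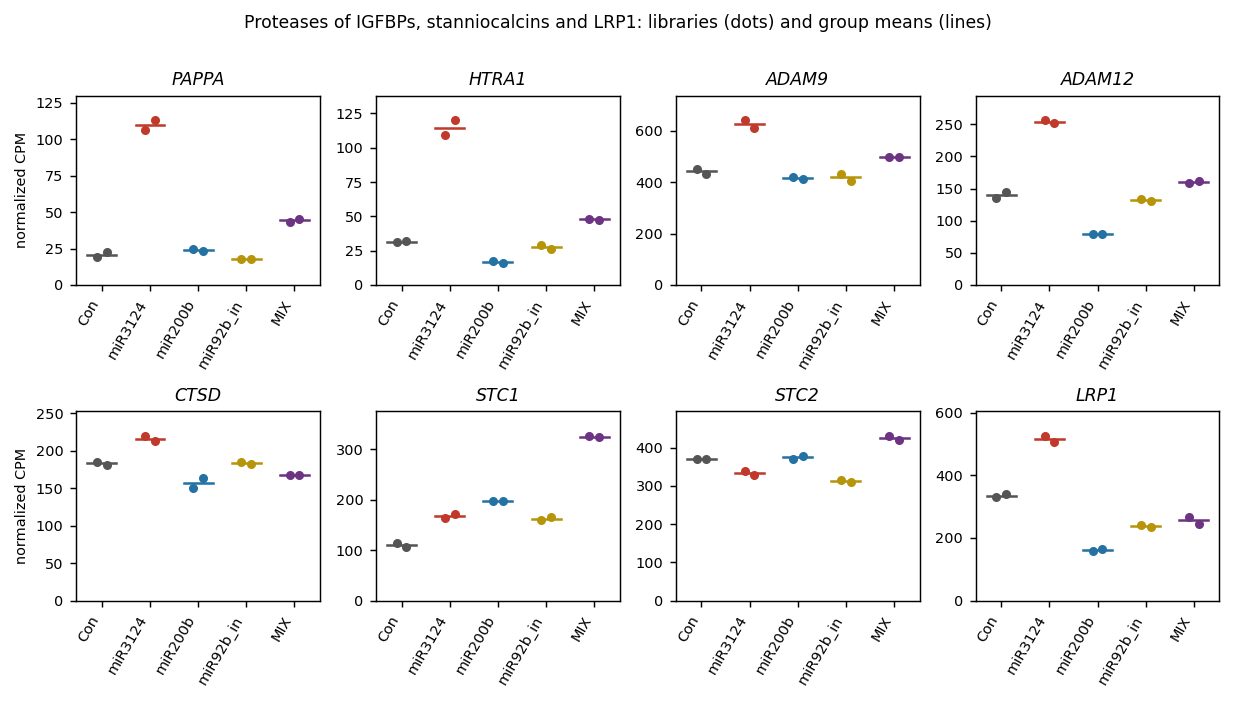
Normalized CPM (vertical axes, linear from 0) of 5 proteases of binding proteins (PAPPA, HTRA1, ADAM9, ADAM12, CTSD), the PAPPA inhibitors STC1 and STC2, and LRP1 in the 5 groups; dots are libraries and lines are group means. PAPPA and HTRA1 are highest in miR3124 (110 and 115 CPM against 20.8 and 31.6 in Con), STC1 is highest in MIX (324 CPM against 111), and LRP1 is lowest in miR200b (161 CPM against 335).

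Among the other ligands, receptors, carriers and substrates, 5 of 12 genes were tested. In miR3124 LRP1 and INSR rose and IRS2 fell, and in miR200b LRP1 and INSR fell. In miR92b_in M6PR rose and LRP1 and INSR fell, and in MIX LRP1, INSR and TMEM219 fell, TMEM219 by 0.28 (adjusted p = 0.00458). Of all genes, 25.7% rose and 25.3% fell in miR3124, and 21.4% and 19.1% in miR200b. The shares were 17.5% and 18.2% in miR92b_in, and 21.5% and 21.1% in MIX. With 5 genes tested, these calls are a description only.
LRP1, an endocytic receptor that also binds IGFBP3, was at 330.2 and 340.0 CPM in Con, 525 and 506 in miR3124, 157 and 165 in miR200b, 242 and 235 in miR92b_in, and 266 and 246 in MIX. Its fall in miR200b was 1.06 ± 0.042 on the log2 scale, or 2.08-fold (adjusted p = 1.08e-25), and its rise in miR3124 was 0.62 (adjusted p = 9.79e-19). Its 796-base 3′UTR holds the miR-200b-3p word, shown here in capitals because LRP1 had the largest change of this list. M6PR and IRS2 hold the word too and were not called in miR200b (log2 changes 0.03 and 0.15), while INSR, without it, fell there.
LRP1, miR-200b-3p word, chr12:57212707-57212736, plus strand: gccggcaagcgagcaCAGTATTatttctcc
INSR, the insulin receptor, which can pair with IGF1R, rose by 0.30 in miR3124 (adjusted p = 0.00761) and fell by 0.33 to 0.35 in the other 3 groups. IRS2, the sister adaptor of IRS1, fell by 0.39 in miR3124 (adjusted p = 0.000125), where IRS1 rose.

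The PI3 kinase and AKT pathway downstream of IRS1 was followed through 24 genes. Of these, 8 rose and 6 fell in miR3124 (25.7% and 25.3% of all genes), 6 and 7 in miR200b (21.4% and 19.1%), 3 and 6 in miR92b_in (17.5% and 18.2%), and 7 and 5 in MIX (21.5% and 21.1%). These shares are near those of all genes and are no result about the list. The medians, between -0.01 and 0.06 on the log2 scale, were also near those of all genes.
PIK3R2, a regulatory subunit of PI3 kinase, had the largest change: 79.9 and 83.2 CPM in Con against 15.4 and 14.3 CPM in miR3124, a 5.50-fold fall (log2 change -2.46 ± 0.072, adjusted p = 4.84e-31). It was also lower in MIX at 29.2 and 26.0 CPM (adjusted p = 1.67e-25). AKT2, the kinase best known for insulin responses, went from 120 and 116 CPM in Con to 45.9 and 45.7 CPM in miR3124, a fall of 1.36 on the log2 scale (adjusted p = 1.66e-26).
AKT2 also fell in the other 3 groups, by 0.76 in MIX, 0.22 in miR200b and 0.17 in miR92b_in. FOXO1, a transcription factor that AKT inhibits, rose by 1.66 in miR3124 (3.72 and 3.99 CPM in Con against 11.8 and 12.6, adjusted p = 7.78e-12). TSC1, a brake on mTOR, rose by 1.04 (adjusted p = 4.91e-21).

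Adaptors and brakes of the receptor gave 6 rises and 7 falls among 20 tested genes of 22 in miR3124, 6 and 4 in miR200b, 2 and 2 in miR92b_in, and 5 and 7 in MIX. The shares of all genes that rose and fell were 25.7% and 25.3% in miR3124, 21.4% and 19.1% in miR200b, 17.5% and 18.2% in miR92b_in, and 21.5% and 21.1% in MIX. SH2B2, an adaptor of the insulin receptor, fell by 1.43 in MIX (5.78 and 6.02 CPM in Con against 2.27 and 2.10, adjusted p = 1.01e-07). PHLPP1, a phosphatase of AKT, fell by 1.36 in miR3124 (adjusted p = 8.29e-24). SOCS3, a feedback inhibitor of cytokine and insulin signalling, rose by 0.97 in miR3124 (adjusted p = 1.04e-14), and TRIB3, a pseudokinase that binds AKT, rose by 0.89 in miR200b (adjusted p = 4.5e-18).
FOXO-activated genes gave 4 rises and 2 falls among 10 in miR3124, 1 and 3 in miR200b, 2 and 4 in miR92b_in, and 2 and 4 in MIX. The rises in miR3124 and MIX include SESN3, which had 18 and 23 counts in miR3124, 3 and 10 in MIX and 1 and 1 in Con. Like IGF2, SESN3 passed the filter on low counts only through miR3124, so its calls carry no weight. Beside the same shares of all genes, these small numbers of calls are a description only. PIK3IP1, an inhibitor of PI3 kinase, fell by 1.84 in miR92b_in from 30 and 19 counts to 5 and 9 (adjusted p = 0.000801). CDKN1B, a cell cycle inhibitor, rose by 0.85 in miR3124 (adjusted p = 3.17e-17). In MIX TRIB1 rose by 0.90 (adjusted p = 8.05e-10) and CITED2 fell by 0.61 (adjusted p = 1.9e-14).
Of the 3 IGF2 mRNA-binding protein genes, IGF2BP2 and IGF2BP3 were called higher in all 4 groups, where 17.5% to 25.7% of all genes rose. IGF2BP3 was up by 0.98 in miR3124 (adjusted p = 3.12e-23) and IGF2BP2 by 0.32 in miR200b (adjusted p = 3.33e-09). The IGF2BP2 call in miR3124 lay close to the threshold, with a log2 change of 0.095 (edgeR adjusted p = 0.0434). IGF2BP1 rose in miR200b, by 0.80 (adjusted p = 3.5e-19), and in MIX, while its changes were -0.03 in miR3124 and -0.08 in miR92b_in (adjusted p = 0.707 and 0.248).

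Over the 67 genes of these pathway lists with an annotated 3′UTR, the seed words were again uneven. None held the miR-3124-5p word and 24 (35.8%) the miR-200b-3p word. Of these 24, 10 fell and 4 rose in miR200b, and of the 43 without the word 8 fell and 13 rose, where 19.1% of all genes fell and 21.4% rose. Of the 17 genes (25.4%) with the miR-92b-3p word, 2 fell and 3 rose in miR92b_in, and of the 50 without it 14 fell and 8 rose, where 18.2% of all genes fell and 17.5% rose. Of the 3 genes with the miR-92b-5p word (4.48%), 1 fell and 1 rose, and of the 64 without it 15 fell and 10 rose. The differences between genes with and without a word were not tested, the lists were chosen with earlier results known, and 3′UTR length was not matched.

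For the members whose group means spanned at least 2-fold, the genes with the most similar profile over the 10 libraries were listed by Pearson's r of log2 CPM, among 2419 other tested genes that also spanned at least 2-fold and averaged at least 1 CPM. The libraries share groups, so these values describe the profile only. IGFBP3 was nearest to HPS4 (0.98), COQ10A (0.97) and ZNF804A (0.96). IGFBP7 was nearest to IL13RA1, SLFN5 and SIDT2 (0.98 each), and IGFBP2 to MAP3K1, RIC1 and COL18A1 (0.98 each).
IGF2, on few counts, was nearest to RFX3 (0.95), LINC00565 (0.93) and DUXAP8 (0.93).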

How the data were processed

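The authors prepared poly(A)-selected libraries with a directional kit, trimmed the reads and mapped them with TopHat; the submitters' processing notes name GRCh38. The counting tool, its strand setting and the annotation are not given in the sources used here. What the authors deposited is a table of raw read counts for each library, not normalized. Each table had 58173 rows, of which 5771 repeated a symbol and were summed.

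Counts were filtered with filterByExpr, scaled with RLE factors (0.985 to 1.02) and fitted in edgeR 4.0.16 (R 4.3.3) with its quasi-likelihood test, all 10 libraries in a single fit without covariates. The study's methods name edgeR with geometric normalization. P-values were adjusted by Benjamini-Hochberg over all 14884 genes tested. The fit was tested on simulated data. The limit set there on recovery of changed genes held for genes at higher counts only and did not cover IGF2 or IGFBP2. Exact intervals for count ratios cover counting error only. The members and lists were chosen with earlier results of these data known. All members were named, and from each other list up to 4 genes with the largest change past adjusted p 0.05, a mean of at least 1 CPM and both libraries on 1 side of both Con libraries. Alternatives were TMM factors, library totals, DESeq2 1.42.0, the edgeR exact test, the 2 groups alone, other low-count filters, the replicate block and leaving out each library.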

Additional observations from a re-analysis of the deposited data

How the results depend on the processing

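Counts of members here cover all 9 tested members, IGF2 included. Of 204 recomputed member and seed-match counts, 195 stayed within 1.5 times the count with the main settings and 9 did not. Of 655 recomputed values of single genes, 604 kept direction and side of the threshold or moved by less than the library spread, 25 lost a call, 10 gained a call, 9 changed sign and 7 moved. With DESeq2, members called numbered 4 in miR200b against Con and 3 in MIX against miR200b; the cause was not tested. With each library left out in turn, the count ran from 8 to 9 in miR3124 against Con, 4 to 7 in miR200b, 5 to 8 in miR92b_in and 4 to 5 in MIX. It ran from 5 to 7 in MIX against miR3124, 3 to 7 in MIX against miR200b, 7 to 8 in MIX against miR92b_in, 7 to 8 in miR3124 against miR200b, 8 to 9 in miR3124 against miR92b_in, 5 to 6 in miR200b against miR92b_in and 2 to 4 for the departure from the summed changes. With words for bases 2 to 7, members with a match numbered 4 for miR-200b-3p, 6 for miR-92b-3p and 3 for miR-92b-5p, and with all coding transcripts 1 matched miR-92b-5p. Changes of sign were all in uncalled values near 0 or on few counts. For MIX against Con, IGFBP6 was 0.007 with TMM factors, 0.011 with library totals, 0.012 without Con replicate 2 and 0.054 without MIX replicate 2, IGF2R was 0.002 with library totals and 0.019 without MIX replicate 2, and IGFBP2 was -0.088 without Con replicate 1. Over all libraries left out in turn, these 3 ran from -0.065 to 0.054, from -0.046 to 0.019 and from -0.088 to 0.362. IGF2 in miR200b was -0.77 without Con replicate 2, -0.55 without miR200b replicate 1 and 3.83 without Con replicate 1. The labels do not say whether replicate numbers are a pairing. Correlations of the replicate differences between groups were -0.062 to 0.061 over 10418 genes, so no shift shared by replicate number was seen. With the replicate block the counts were 8, 7, 7 and 4 against Con and no call changed. INS-IGF2 had 0 counts, so adding it to IGF2 changed nothing. The lone library left in a group was assumed to vary like the others. Depth limits IGF2 and IGFBP5, at no more than 22 counts in any library.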
